A study of Danio rerio with 9 samples.

Results

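The haem synthesis enzymes were followed here through the rows of the count table named alas1, alas2, alad, hmbsa, hmbsb, uros, urod, cpox, ppox and fech. All 10 rows were present among 28802 gene names, and all 10 were among the 21694 genes that passed the filter on low counts. The rule that names the 10 genes uses their enzymatic function and no measured value, although earlier results of these data were known when it was written. The libraries were made from whole zebrafish larvae at 8 days post fertilization, with RNA from 7 larvae pooled in each. They held 3 double mutants, homozygous for stl700 in fam177a1a and for stl746 in fam177a1b, 3 single mutants, homozygous for stl700 in fam177a1a, and 3 wild types, which the file headers name AB after a laboratory line. Both mutants thus carry stl700, and the labels do not say whether the wild types were siblings of the mutants or whether libraries of 1 genotype derive from separate clutches, so p-values measure only the spread between these pools.

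Haem is the iron-containing ring that haemoglobin, cytochromes and many enzymes carry. Its synthesis begins in the mitochondrion, where ALA synthase joins glycine to succinyl-CoA, goes through a set of enzymes in the cytosol, and returns to the mitochondrion for the last oxidations and the insertion of iron. Vertebrates have a pair of ALA synthases: ALAS1 serves all cells and is strong in liver, while ALAS2 is made in the red cell lineage. Zebrafish mutants of this pathway are classical models of anaemia and porphyria, among them sauternes (alas2), yquem (urod), montalcino (ppox) and dracula (fech).

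The depth was 17.0 to 19.3 M counts in the double mutants, 17.2 to 18.3 M in the single mutants, and 18.3 to 24.7 M in wild type. The row fam177a1, read as the targeted gene from its name, had 15, 9 and 8 counts in the double mutants and 8, 14 and 11 in the single mutants, against 669, 490 and 487 in wild type. No row was named fam177a1a or fam177a1b, so these counts do not show fam177a1b separately. Single-mutant replicate 1 stood apart from its group: the chi-square per degree of freedom over genes was 18.4 and 21.5 against replicates 2 and 3, which differed from each other by 6.38. In wild type the same measure lay between 6.15 and 13.7. Every haem synthesis row had at least 106 counts in every library, so none was near the level of 3 counts, which is 0.121 to 0.178 CPM (counts scaled to the TMM-adjusted library total).

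Of the 10 haem synthesis genes, 7 were lower in double mutants than in wild type and none was higher. They were the erythroid synthase alas2, the cytosolic enzymes alad, hmbsa, hmbsb and urod, and the mitochondrial oxidases cpox and ppox. The general synthase alas1, the cytosolic uros and the last enzyme, fech, did not pass the test. Calls are from edgeR's quasi-likelihood test on counts, adjusted by Benjamini-Hochberg over all genes tested, at an adjusted p under 0.05. Over all 21694 genes, 18.0% were called lower in this comparison and 14.2% higher, and the median log2 fold change was −0.01, against −0.60 over the 10 genes. In single mutants against wild type, 7 of the 10 were likewise lower and none higher, at a background of 22.6% lower and 19.5% higher, with a median of −0.62 against −0.01 over all genes. These 2 comparisons share the 3 wild-type libraries, so their values are given side by side and the second does not stand as a repeat of the first. The 7 genes called lower did not overlap with wild type in any library, in either mutant. Among all genes 27.3% were separated in this way below wild type in double mutants and 26.5% in single mutants.

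**Figure D1:**
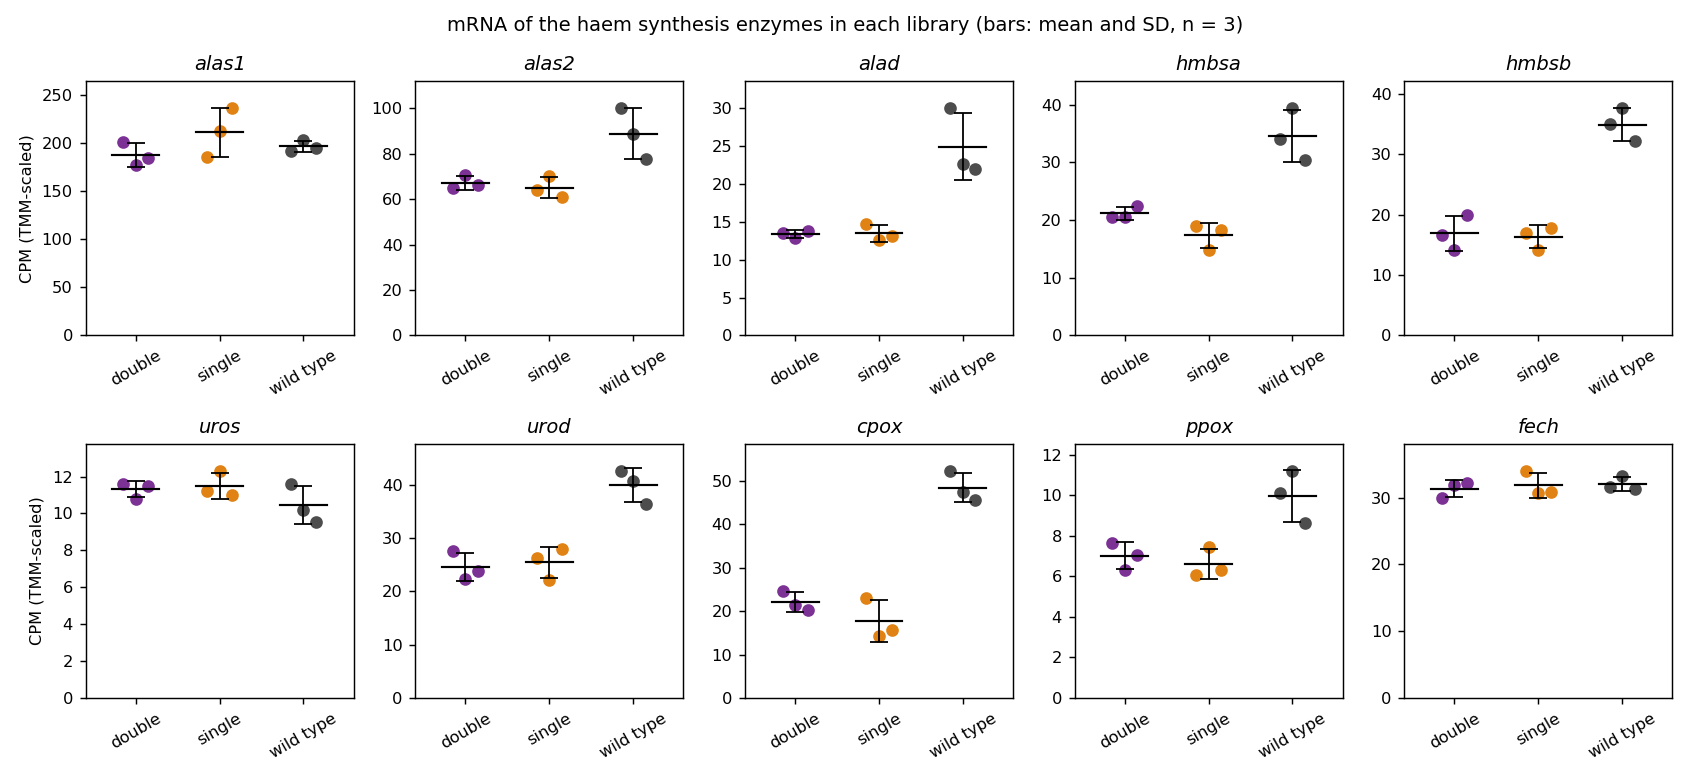
Each panel shows 1 haem synthesis gene, with CPM (scaled by TMM factors, axis from 0) in each of the 3 double-mutant, 3 single-mutant and 3 wild-type libraries, and bars for the mean and SD. The mutant points lie below all wild-type points for alas2, alad, hmbsa, hmbsb, urod, cpox and ppox, and overlap with them for alas1, uros and fech.

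The pathway opens with ALA synthase. The erythroid gene alas2 had 64.8, 70.8 and 66.1 CPM in the double mutants, 64.0, 70.2 and 61.0 CPM in the single mutants, against 100, 88.8 and 77.6 CPM in wild type. All 6 mutant libraries lay below the lowest wild type, by a margin smaller than the range within wild type. The log2 fold change was −0.40 in double mutants (SE 0.09, edgeR adjusted p = 0.00388), or 75.7% of the wild-type level. It was −0.45 in single mutants (SE 0.09, adjusted p = 0.00126), or 73.3%.

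The general gene alas1 had 201, 177 and 184 CPM in the double mutants, 185, 212 and 236 CPM in the single mutants, against 192, 203 and 195 CPM in wild type. The wild types sat close together. The single mutants spread to either side of them, while 2 of the 3 double mutants lay below them and the other lay among them. The log2 fold change was −0.07 in double mutants, with a 95% interval from −0.25 to 0.11 (edgeR adjusted p = 0.567). It was 0.10 in single mutants, with an interval from −0.08 to 0.28 (adjusted p = 0.356). A fall as large as that estimated for alas2 lies outside both intervals. Without single-mutant replicate 1, which had the lowest alas1 level of its group, alas1 was called higher in single mutants (log2 fold change 0.19, adjusted p = 0.0421).

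Set against each other per base of gene length, alas1 was the more abundant mRNA in every library. In TPM, which divides counts by gene length and scales each library to the same total, alas2 stood at 46.4, 50.7 and 47.3 in the double mutants, 45.8, 50.1 and 42.3 in the single mutants, against 68.6, 63.7 and 57.7 in wild type. The corresponding TPM of alas1 was 209, 185 and 192 in the double mutants, 193, 220 and 238 in the single mutants, against 192, 213 and 211 in wild type. The erythroid gene thus gave 19.8% ± 1.70 of the summed ALA synthase TPM in double mutants, 17.6% ± 2.19 in single mutants, against 23.7% ± 2.50 in wild type (SD, n = 3 each).

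The log2 ratio of alas2 to alas1 is a value within each library, on which depth and scaling cancel. It averaged −2.02 ± 0.153 in double mutants and −1.70 ± 0.197 in wild type, a difference of −0.32 (SD, n = 3 each, exact permutation test, two-sided, p = 0.2). In single mutants it averaged −2.23 ± 0.226 against −1.70 ± 0.197 in wild type, a difference of −0.54 (exact permutation test, two-sided, p = 0.1). With 3 libraries against 3 the smallest p this test allows is 0.1. All single mutants lay below all wild types on this ratio, whereas the highest double mutant, with alas2 at 0.274 of alas1, met the lowest wild type, also at 0.274. Between double and single mutants the ratio differed by 0.21 (exact p = 0.3), and the genotypes overlapped.

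**Figure D2:**
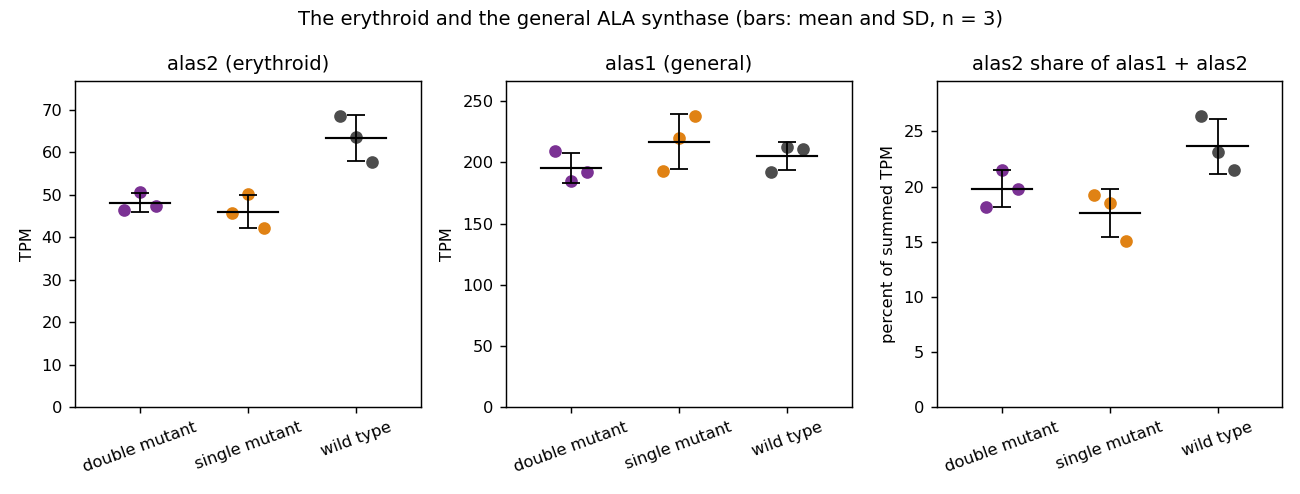
TPM of alas2 (left), TPM of alas1 (middle) and the share of alas2 in the sum of both, in percent (right), for each library of double mutants, single mutants and wild type, with bars for the mean and SD (n = 3). alas2 is lower in all mutant libraries, alas1 overlaps between the 3 genotypes, and the share of alas2 averages 19.8% and 17.6% in double and single mutants and 23.7% in wild type.

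The cytosolic enzymes follow. alad encodes ALA dehydratase, which joins a pair of ALA molecules into the pyrrole porphobilinogen. It had 13.5, 12.8 and 13.8 CPM in the double mutants, 14.7, 12.6 and 13.1 CPM in the single mutants, against 30.0, 22.7 and 22.0 CPM in wild type. The mutants were tightly grouped and wild-type replicate 1 was the highest library. The log2 fold change was −0.90 in double mutants (SE 0.12, edgeR adjusted p = 7.23e-05) and −0.89 in single mutants (SE 0.12, adjusted p = 5.36e-05).

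Zebrafish carry a pair of genes for hydroxymethylbilane synthase, which links porphobilinogen units into a chain. hmbsb had 16.6, 14.2 and 19.9 CPM in the double mutants, 17.0, 14.2 and 17.8 CPM in the single mutants, against 35.0, 37.6 and 32.1 CPM in wild type. It was at 48.4% of the wild-type level in double mutants (log2 fold change −1.05, SE 0.12, edgeR adjusted p = 1.68e-05). In single mutants it was at 46.7% (−1.10, SE 0.12, adjusted p = 7.64e-06). The paralogue hmbsa had 20.5, 20.6 and 22.5 CPM in the double mutants, 18.9, 14.8 and 18.3 CPM in the single mutants, against 34.1, 39.4 and 30.4 CPM in wild type. Its log2 fold change was −0.71 in double mutants (SE 0.11, adjusted p = 0.000267) and −0.99 in single mutants (SE 0.12, adjusted p = 1.00e-05). Both paralogues were separated from wild type, and the double mutants lay above the single mutants for hmbsa while overlapping them for hmbsb.

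Of the summed TPM of the pair, hmbsa gave 57.5%, 61.5% and 55.4% in the double mutants, 55.0%, 53.4% and 53.0% in the single mutants, against 51.6%, 53.5% and 50.9% in wild type. All double mutants were above all other libraries on this share. The log2 ratio of hmbsa to hmbsb differed by 0.36 between double mutants and wild type (exact permutation test, two-sided, p = 0.1, the smallest possible), by 0.11 between single mutants and wild type (exact p = 0.3) and by 0.25 between double and single mutants (exact p = 0.1). This ratio was examined after the values were seen. How reads that map to both paralogues were counted is not given in the sources used here, so their separate levels are uncertain.

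uros encodes uroporphyrinogen III synthase, which closes the chain into the ring. It had 11.6, 10.8 and 11.5 CPM in the double mutants, 11.2, 12.3 and 11.0 CPM in the single mutants, against 11.6, 10.2 and 9.55 CPM in wild type, and the genotypes overlapped. The log2 fold change was 0.11 in double mutants (95% interval −0.14 to 0.36, edgeR adjusted p = 0.523) and 0.13 in single mutants (−0.12 to 0.38, adjusted p = 0.399). The fall of its pathway neighbours hmbsb and urod is outside these intervals. urod, uroporphyrinogen decarboxylase, had 27.5, 22.3 and 23.9 CPM in the double mutants, 26.3, 22.2 and 27.9 CPM in the single mutants, against 42.6, 40.7 and 36.4 CPM in wild type. The mutants were separated from wild type, with a log2 fold change of −0.70 in double mutants (SE 0.11, adjusted p = 0.000174) and −0.65 in single mutants (SE 0.11, adjusted p = 0.000212).

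The last enzymes are mitochondrial. cpox, coproporphyrinogen oxidase, had the lowest fold changes of the 10 genes in both mutants. Its level was 24.6, 21.4 and 20.3 CPM in the double mutants, 23.1, 14.2 and 15.7 CPM in the single mutants, against 52.2, 47.4 and 45.6 CPM in wild type. Single-mutant replicate 1 lay among the double mutants, above replicates 2 and 3, and gave cpox the widest spread of any member within a genotype, a coefficient of variation of 26.8%. The log2 fold change was −1.13 in double mutants (SE 0.15, edgeR adjusted p = 0.000128), or 45.7% of the wild-type level. It was −1.45 in single mutants (SE 0.15, adjusted p = 1.39e-05), or 36.5%.

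ppox, protoporphyrinogen oxidase, had the lowest mean TPM of the members in all 3 genotypes. It was at 7.66, 6.34 and 7.06 CPM in the double mutants, 6.07, 7.46 and 6.34 CPM in the single mutants, against 10.1, 11.2 and 8.63 CPM in wild type. The mutants lay below wild type by a narrow gap. Its log2 fold change was −0.50 in double mutants (SE 0.14, edgeR adjusted p = 0.0136), a call that was lost without double-mutant replicate 2 (adjusted p = 0.0823) or 3 (0.0547) and without wild-type replicate 1 (0.0518) or 2 (0.0658). The fold change was −0.59 in single mutants (SE 0.14, adjusted p = 0.00423), and that call held in all 17 alternatives.

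fech encodes ferrochelatase, which inserts iron into protoporphyrin. It had 29.9, 31.9 and 32.2 CPM in the double mutants, 34.0, 30.7 and 30.8 CPM in the single mutants, against 31.6, 33.2 and 31.3 CPM in wild type. The replicates lay close together, with a coefficient of variation of 3.96% in double mutants, 5.87% in single mutants, against 3.16% in wild type. The log2 fold change was −0.03 in double mutants (95% interval −0.21 to 0.14, edgeR adjusted p = 0.803) and −0.01 in single mutants (−0.19 to 0.17, adjusted p = 0.942). Its sign changed between alternatives, as these values lie close to 0.

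**Figure D3:**
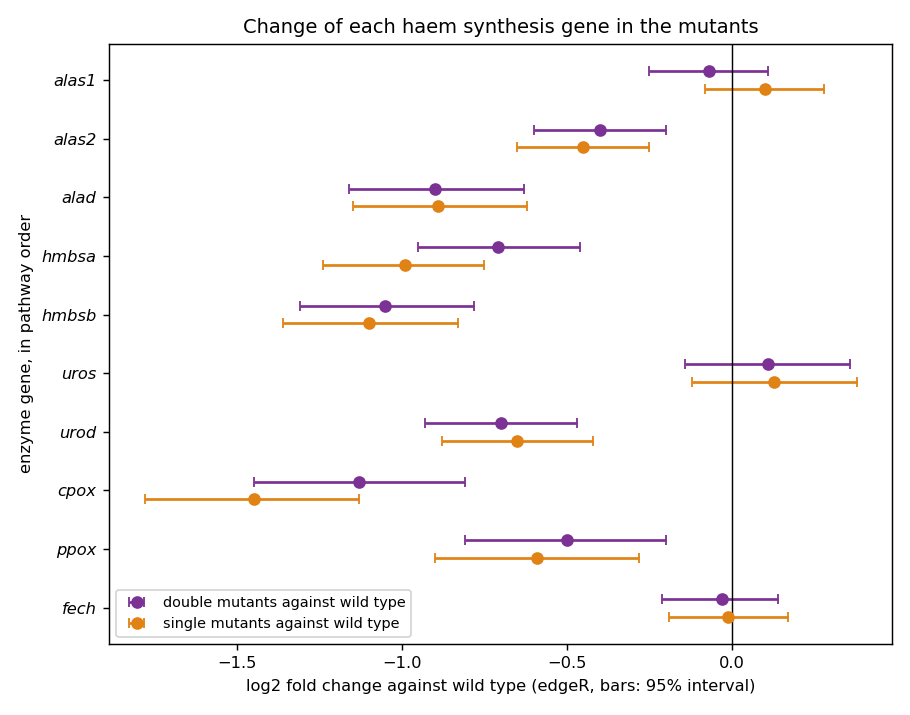
Log2 fold change against wild type of each haem synthesis gene in pathway order, for double mutants (upper point of each pair) and single mutants (lower point), with the 95% interval from edgeR's fit. The intervals of alas1, uros and fech include 0, and cpox has the lowest estimates, −1.13 and −1.45.

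The order of the levels per length was not the same across the genotypes. In wild type alas1 came first at 205 TPM, followed by urod (65.3) and alas2 (63.3), which overlapped, and by fech (47.4) and cpox (43.4), which also overlapped. Then came hmbsa (28.2) and hmbsb (25.9), which overlapped, alad (21.3), and uros (11.8) with ppox (10.5), which overlapped as well. In double mutants alas1 (195 TPM) was followed by alas2 (48.1), fech (46.4) and urod (40.3), each overlapping the next. cpox (19.9) was then close to hmbsa (17.3), followed by uros (12.8), hmbsb (12.5) and alad (11.5), of which hmbsb overlapped both of the others, and ppox (7.38) was last. In single mutants the order was alas1 (217 TPM), fech (46.6), alas2 (46.1), urod (41.2), cpox (15.7), hmbsa (13.9), uros (12.9), hmbsb (12.0), alad (11.5) and ppox (6.88). There, each gene from fech to urod and from cpox to alad overlapped its neighbour. The place of uros thus lay below hmbsa, hmbsb and alad in wild type, and above hmbsb and alad in mean level in the mutants. It overlapped hmbsb in both mutants, and overlapped alad in single mutants but not in double mutants. Summed over the 10 genes, the level was 412 ± 16.6 TPM in double mutants, 424 ± 12.9 TPM in single mutants, against 522 ± 14.0 TPM in wild type (SD, n = 3 each). TPM depends on what else is in the library, so the tests above rest on the counts.

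**Figure D4:**
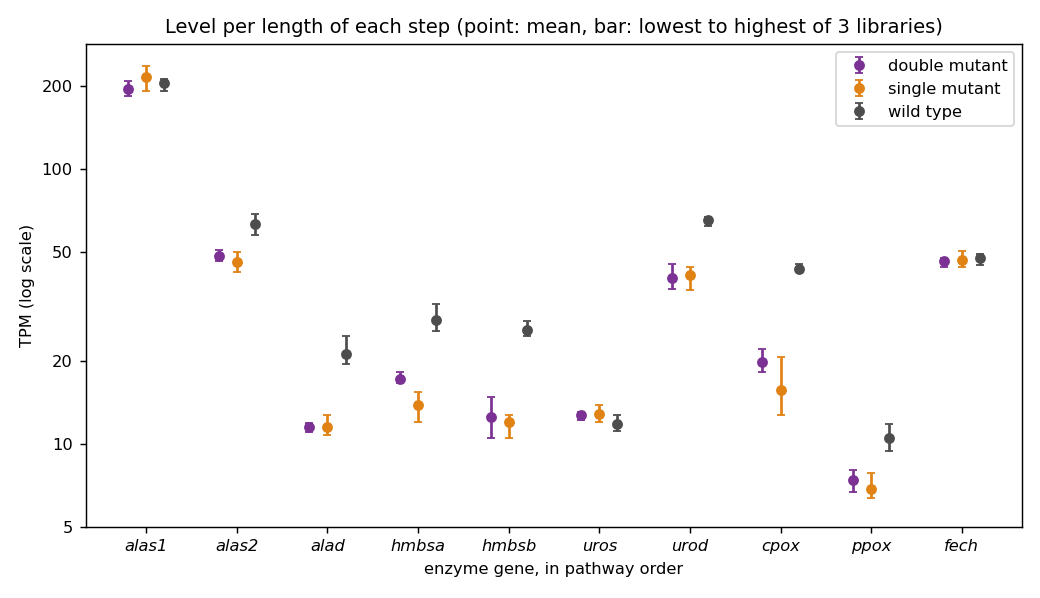
TPM (log scale) of each haem synthesis gene in pathway order in double mutants, single mutants and wild type, as the mean with a bar from the lowest to the highest of 3 libraries. alas1 is highest, at means of 195 to 217 TPM, in all genotypes, fech averages 46.4 to 47.4 TPM, and cpox stands at 19.9 and 15.7 TPM in double and single mutants and 43.4 TPM in wild type.

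Between double and single mutants, edgeR called none of the 10 haem synthesis genes, at a background of 1.67% of all genes (362 of 21694). limma-voom and DESeq2 also called 0, and 1 gene, hmbsa, had an unadjusted p under 0.05, against 17.9% of all genes. hmbsa was higher in all double mutants than in all single mutants (log2 fold change 0.29, 95% interval 0.04 to 0.54, edgeR adjusted p = 0.212), a separation above the single mutants that 10.7% of all genes showed. cpox differed by 0.32 (−0.01 to 0.66, adjusted p = 0.294) and alas1 by −0.17 (−0.35 to 0.01, adjusted p = 0.298). For the other 7 genes the estimates lay between −0.05 and 0.08.

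The count of 0 rested on single-mutant replicate 1. Without that library 3 of the 10 genes were called between the mutants, while the background went to 17.6% of all genes. These were cpox (log2 fold change 0.56, edgeR adjusted p = 0.000793), hmbsa (0.36, adjusted p = 0.0449) and alas1 (−0.26, adjusted p = 0.0195). In the 2 comparisons with wild type the number of members called lower was 7 without this library too, at a background called lower of 22.0% in double mutants and 24.6% in single mutants.

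Several members are made in red cells as well as elsewhere, and in whole larvae fewer red cells and less RNA per red cell cannot be told apart. Of 29 erythrocyte markers, 26 had a row and 21 passed the filter, and their summed level was 3820 to 4180 CPM in double mutants, 3410 to 3920 CPM in single mutants, against 3600 to 4980 CPM in wild type, overlapping. Globins made up most of this sum, at 3010 to 3290 CPM in double mutants, 2550 to 3100 CPM in single mutants, against 2800 to 4060 CPM in wild type. In double mutants 9 of the 21 were lower and 7 higher, and in single mutants 10 were lower and 4 higher, with medians of −0.30 and −0.26. Over all genes 18.0% were called lower and 14.2% higher in double mutants, and 22.6% and 19.5% in single mutants. The 5 globins below the filter, hbaa1, hbaa2, hbba1, hbba2 and hbbe3, reached at most 2 counts in a library. Other globins were abundant and moved in both directions. The beta globin hbbe1.2 had 71.6 ± 0.126 CPM in double mutants and 180 ± 28.3 CPM in single mutants. In wild type it had 536 ± 73.7 CPM (SD, n = 3 each). hbae1.1 and hbbe1.3 were lower as well. Further globins were named after their values were seen. Of these, hbae3 was lower (log2 fold changes −0.55 and −0.49 in double and single mutants). By contrast hbae5 and hbbe1.1 were higher, with log2 fold changes of 2.02 and 2.08 in double mutants and 1.02 and 1.66 in single mutants. hbbe2 was higher in double mutants (0.33, edgeR adjusted p = 0.0207) and not called in single mutants (0.06, adjusted p = 0.659). In wild type hbbe1.1 spread widely, at 504, 158 and 237 CPM. How reads that map to several globins were counted is not given in the sources used here, so their separate levels are uncertain.

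Markers that are not globins summed to 818 to 884 CPM in double mutants, 813 to 850 CPM in single mutants, against 798 to 918 CPM in wild type. klf1, an erythroid transcription factor, was at 6.37 ± 0.285 CPM in double mutants, 5.65 ± 0.544 CPM in single mutants, against 9.90 ± 1.38 CPM in wild type, with log2 fold changes of −0.64 (edgeR adjusted p = 0.00312) and −0.81 (adjusted p = 0.000399) in double and single mutants. gata1a, the master regulator of the red lineage and named here for that role, had a log2 fold change of −0.40 in double mutants (adjusted p = 0.246) and of −1.38 in single mutants (adjusted p = 0.000959), at a low level. Other red cell genes of this list, named after their values were seen, were called in both directions. Lower in both mutants were slc4a1a (−0.51 and −0.31 in double and single mutants) and hemgn (−0.43 and −0.68). So were epb41b (−0.43 and −0.51) and tal1 (−0.30 and −0.27). Higher in both were ank1a, a membrane skeleton ankyrin (0.29 and 0.27), and epor, the erythropoietin receptor (0.53 and 0.69). In double mutants rhag (0.23) and the spectrin sptb (0.20) were higher too. The part of the red cell markers in the change of the 7 enzymes was not tested.

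Markers of other cell types are given as counts, to be read against the 18.0% of all genes called lower and 14.2% called higher in double mutants and the 22.6% and 19.5% in single mutants. Summed hepatocyte markers (12 genes, 6 higher and 2 lower in double mutants, 7 higher and 0 lower in single mutants) were at 6220 to 6530 CPM in double mutants, 5350 to 6550 CPM in single mutants, against 4750 to 5380 CPM in wild type. On this sum the single mutants overlapped wild type and the double mutants did not. cp was higher in both mutants (log2 fold changes 0.60 and 0.45 in double and single mutants). So were tfa (0.36 and 0.23) and fabp10a (0.30 and 0.26), both named after their values were seen. tfa had the highest mean CPM of the list but not the highest TPM. In that list serpina1, a protease inhibitor of plasma, was higher in double mutants (548 ± 24.4 CPM) but not called in single mutants (249 ± 24.8 CPM, edgeR adjusted p = 0.662), against 239 ± 33.1 CPM in wild type. Transthyretin, ttr, named after its values were seen, was lower in double mutants (log2 fold change −1.24, edgeR adjusted p = 0.00136) and had −0.52 in single mutants (adjusted p = 0.0689). The gene hamp, which encodes the iron hormone hepcidin, was at 19.7 ± 2.20 CPM in double mutants, 23.3 ± 3.30 CPM in single mutants, against 13.7 ± 2.63 CPM in wild type. Macrophage markers (5 genes, 0 higher and 1 lower in double mutants, 1 higher and 2 lower in single mutants) summed to 87.1 to 99.6 CPM in double mutants, 85.2 to 95.7 CPM in single mutants, against 124 to 131 CPM in wild type, mostly through lcp1, an actin bundler of leukocytes. The other macrophage markers did not all move with lcp1. marco was higher in single mutants (log2 fold change 0.75, edgeR adjusted p = 0.00867) and not called in double mutants (0.55, adjusted p = 0.0564). cd74a was lower in single mutants (−0.82, adjusted p = 0.00161) and not called in double mutants (−0.24, adjusted p = 0.289). mpeg1.1 and csf1ra were not called in either. In double mutants the share of macrophage markers called lower was near that of all genes, and none was called higher. Thrombocyte markers (6 genes, 2 higher and 0 lower in each mutant) summed to 341 to 384 CPM in double mutants, 366 to 492 CPM in single mutants, against 262 to 278 CPM in wild type, mostly through thbs1b, a matrix protein that is not limited to thrombocytes. No marker with a row in these 3 lists was at 0 in any library, and their part in the results was not tested.

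The enzymes work with carriers and chaperones of the mitochondrion. The same shares of all genes apply to the counts of this and the other lists of the pathway. Of 29 genes for haem transport and mitochondrial partners, 10 were lower and 5 higher in double mutants, and 9 lower and 6 higher in single mutants, with medians of −0.15 and −0.05. abcb10, an inner-membrane transporter that stabilises the iron importer mitoferrin in mouse erythroid cells, was at 9.68 ± 1.80 CPM in double mutants, 11.4 ± 0.617 CPM in single mutants, against 21.6 ± 1.81 CPM in wild type (log2 fold changes −1.16 and −0.92 in double and single mutants, edgeR adjusted p = 1.14e-05 and 5.50e-05). lonp1, the mitochondrial protease that degrades ALAS1 in mammals, had log2 fold changes of −0.71 (adjusted p = 0.000821) and −1.14 (adjusted p = 1.46e-05). pgrmc2, a haem-binding membrane protein, changed by −0.61 and −0.96 in the same order. abcb6a, a porphyrin transporter in mammals, was higher, at 28.3 ± 2.11 CPM in double mutants, 32.5 ± 3.23 CPM in single mutants, against 18.6 ± 1.79 CPM in wild type. The paralogue abcb6b, named after its values were seen, was not called in either mutant (−0.08, edgeR adjusted p = 0.742, and 0.03, adjusted p = 0.899).

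The mitoferrins, which import iron, and the mitochondrial glycine carriers were looked at after their values were seen. slc25a37, mitoferrin 1, had a log2 fold change of −0.42 in double mutants (edgeR adjusted p = 0.00392) and −0.17 in single mutants (adjusted p = 0.162). Its paralogue slc25a28, mitoferrin 2, was higher in both (0.40, adjusted p = 0.00105, in double mutants and 0.28, adjusted p = 0.00857, in single mutants). slc25a38b, a mitochondrial glycine carrier, had −1.02 in double mutants (adjusted p = 0.0227) and −0.69 in single mutants (adjusted p = 0.0730). Its paralogue slc25a38a was not called in either (−0.87, adjusted p = 0.274, and 0.33, adjusted p = 0.649). The single mutants spread widely for slc25a38a, at 4.98 CPM in replicate 1 and 17.5 and 23.1 CPM in the others. The double mutants had 6.11, 8.34 and 5.49 CPM, against 10.6, 15.1 and 10.8 CPM in wild type.

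Further lists cover genes that act after haem is made. In haem breakdown, 1 of 6 was higher and 2 lower in double mutants, and 1 higher and 1 lower in single mutants, where both shares are below those of all genes (19.5% and 22.6%). hmox2a, a constitutive haem oxygenase, was higher in both (log2 fold changes 0.45 and 0.69 in double and single mutants, edgeR adjusted p = 0.0116 and 0.000434). Its paralogue hmox2b, named after its values were seen, was not called in either (0.04, adjusted p = 0.812, and 0.23, adjusted p = 0.119). ugt1a1, which conjugates bilirubin in mammals, was lower in both (−0.80 and −0.79). For the conversion of haem to haem A (cox10, cox15) and its attachment to cytochrome c (hccsa.1, hccsb), 2 of 4 genes were lower in double mutants, both of them lyases of cytochrome c, and 3 in single mutants, the same lyases and cox10 (log2 fold change −0.25, edgeR adjusted p = 0.0360), with none higher. The lyase hccsa.1, which fixes haem to cytochrome c, changed by −0.56 (adjusted p = 0.00422) and −0.69 (adjusted p = 0.000744) in double and single mutants.

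Iron-sulfur cluster assembly shares iron with haem synthesis, and ferrochelatase carries such a cluster in animals. Of 15 genes, 2 were higher and 6 lower in double mutants, and 2 higher and 3 lower in single mutants. In single mutants these shares do not exceed those of all genes (19.5% higher and 22.6% lower). isca1, a cluster carrier, was higher (log2 fold changes 0.52 and 0.78), as was the sulfur donor nfs1 (0.29 and 0.36). The chaperone hspa9 (−0.37 and −0.56) and fdx1 (−0.29 and −0.43) were lower, each pair in the order double, single. The other genes called lower were named after their values were seen. They were glrx5 in both mutants (−0.29 and −0.42), and fdx2 (−0.37), iscub (−0.56) and nfu1 (−0.44) in double mutants.

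In the control of haem synthesis, 3 of 12 genes were higher and 3 lower in double mutants, and 3 higher and 5 lower in single mutants. These counts stand beside 14.2% of all genes higher and 18.0% lower in double mutants, and 19.5% higher and 22.6% lower in single mutants. The shares of the list lie above these, with the widest gap for genes lower in single mutants. Whether this sets a list of 12 genes apart was not tested. klf1 and gata1a are the 2 genes this list shares with the erythrocyte markers. The mRNAs of both iron regulatory proteins were lower. aco1 had 102 ± 1.53 CPM in double mutants, 116 ± 3.56 CPM in single mutants, against 141 ± 1.75 CPM in wild type, and ireb2 had 38.9 ± 0.653, 36.0 ± 0.907 and 51.3 ± 0.643 CPM in the same order. bach1b, which encodes a repressor that haem inactivates in mammals, was higher, at 43.7 ± 1.94 CPM in double mutants, 77.9 ± 22.1 CPM in single mutants, against 21.3 ± 2.89 CPM in wild type (log2 fold changes 1.03 and 1.87, edgeR adjusted p = 0.00538 and 0.000153). Single-mutant replicate 1 had 52.7 CPM of bach1b, and the others 93.3 and 87.8 CPM. The paralogue bach1a, named after its values were seen, was higher in both (0.42, edgeR adjusted p = 0.00429, and 0.38, adjusted p = 0.00557).

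For the substrates of ALA synthase, 0 of 13 genes were higher and 3 lower in double mutants, and 2 higher and 4 lower in single mutants. Over all genes 14.2% were higher and 18.0% lower in double mutants, and 19.5% higher and 22.6% lower in single mutants. suclg1, a subunit of succinyl-CoA ligase, changed by −0.30 and −0.36 and the serine hydroxymethyltransferase shmt1, which makes glycine, by −0.46 and −0.44 in double and single mutants. The glycine cleavage gene amt was at 28.1 ± 0.753 CPM in double mutants, 24.9 ± 2.43 CPM in single mutants, against 46.6 ± 3.07 CPM in wild type. The glycine transporter slc6a9 was higher in single mutants (log2 fold change 0.44, edgeR adjusted p = 0.00163) and not called in double mutants (0.20, adjusted p = 0.127). Other genes were named after their values were seen. In single mutants ogdha was higher (0.23, adjusted p = 0.0201) and gcsha lower (−0.32, adjusted p = 0.0331). The genes sucla2, suclg2 and shmt2 were not called in either mutant. The medians of this list were −0.12 and −0.09.

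**Figure D5:**
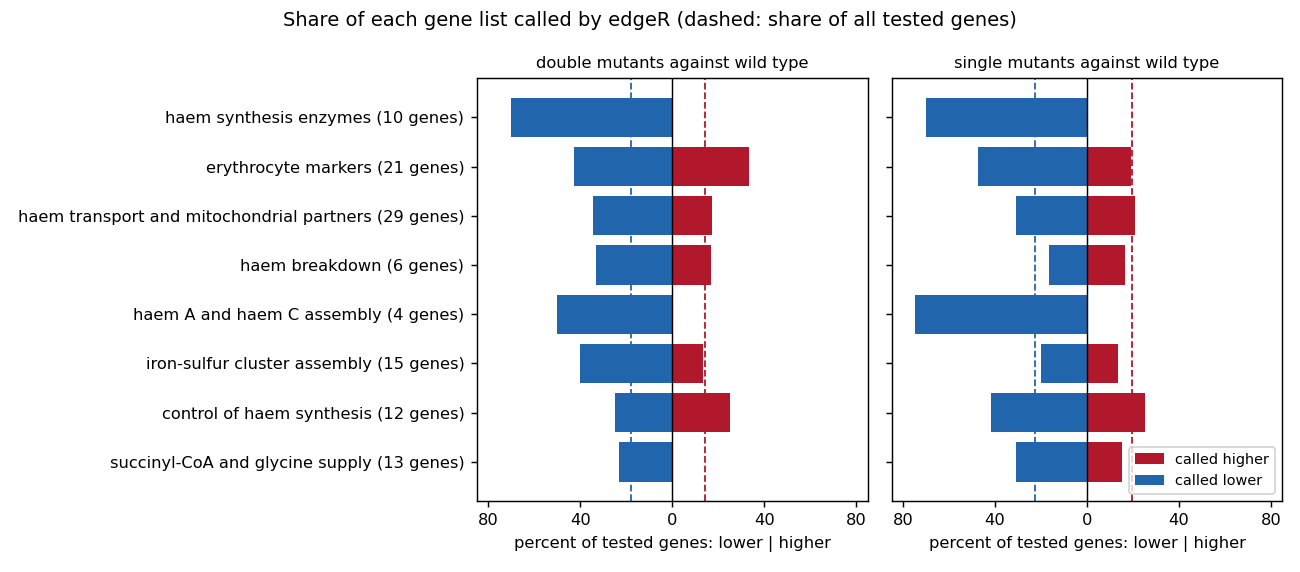
Percent of the tested genes of each list called lower (bars to the left) or higher (bars to the right) by edgeR, in double mutants (left panel) and single mutants (right panel) against wild type, with dashed lines at the share of all 21694 genes. Of the haem synthesis enzymes 7 of 10 are called lower and none higher. The haem A and haem C list (4 genes) also holds no gene called higher, nor does the substrate list in double mutants, where 3 of 13 genes are lower. Of all genes 18.0% are called lower and 14.2% higher in double mutants, and 22.6% and 19.5% in single mutants. The lists of erythrocyte markers, transport, breakdown, iron-sulfur assembly and control hold genes called in both directions.

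Likeness of pattern was measured as Pearson's r of log2 CPM over the 9 libraries among 10624 genes, as a description in which the split between mutants and wild type is shared by all points. Nearest to alas2 were gpn1 (r = 0.967), nol9 (0.961), the globin hbae3 (0.959), socs6b (0.959) and znf131 (0.954). Of the other haem synthesis genes alad was the nearest to alas2 (r = 0.915, rank 88), and alas1 (−0.191), uros (−0.208) and fech (0.190) were far from it. Nearest to alas1 were lgmn (0.987), acap3b (0.979), ino80db (0.943), msl1a (0.941) and itgb1b (0.939), and no haem synthesis gene came above r = 0.0942 with it, which was urod.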

How the data were processed

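RNA was measured in 9 libraries, 3 for each of 3 genotypes. The deposited values are raw counts per gene name, whole numbers with a different total in each library, with a length in bases per name. The submitters' processing notes name GRCz11 as the build and list featureCounts, STAR, DESeq2 and cutadapt, with no role. Tool versions, gene annotation, strandedness and the rules for multi-mapping reads were not given in the sources used here. From the deposited counts, genes were filtered with filterByExpr, scaled with TMM and tested in edgeR 4.0.16 (glmQLFit with robust spread, glmQLFTest) under R 4.3.3, with all 9 libraries in 1 fit by genotype and 6 residual degrees of freedom. Benjamini-Hochberg adjustment ran over all genes tested in each of the 3 comparisons. The procedure was run on simulated counts with the same spread for every gene and no outlying library, a simpler setting than these data. TPM was computed from counts and lengths. Ratios between 2 genes were compared by exact permutation. The alternatives were RLE and upper-quartile scaling, DESeq2 1.42.0, limma-voom 3.58.1, other filters, the 6 libraries compared alone, a replicate block and leaving out each library. Intervals hold 95% and rest on the fit's spread. Of 139 symbols in the lists, 126 had a row. Up to 4 genes of each list with the smallest adjusted p were chosen for naming, and not all of these are given. Genes with a likeness to alas1 or alas2 were the 5 highest correlations at a mean of at least 10 CPM, members aside. The members and lists were chosen with earlier results of these data known. No sequences of the genes were used here.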

Additional observations from a re-analysis of the deposited data

How the results depend on the processing

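In the comparisons of double and single mutants with wild type, the number of haem synthesis genes called stayed between 6 and 7 and between 7 and 8 over 17 alternatives. The ratio of alas2 to alas1 kept its sign in all 9 alternatives of each comparison. Between double and single mutants the count was 0 in every alternative but one, and leaving out 1 library gave 0 to 3. Over all genes that comparison gave 362 calls, 862 with DESeq2, 184 with the 6 libraries alone and 108 to 3860 with 1 library left out. For fech in single mutants against wild type the log2 fold change of −0.01 became 0.01 with RLE scaling, 0.03 with no filter, 0.03 with at least 1 CPM in 3 libraries, 0.00 with the 6 libraries alone and 0.01 with DESeq2, and ran from −0.06 to 0.05 with 1 library left out. In double mutants against wild type it ran from −0.05 to 0.02 in that way. Between double and single mutants, alad became 0.01 with upper-quartile scaling. With 1 library left out, the values ran from −0.07 to 0.06 for alad, −0.01 to 0.09 for alas2, −0.15 to 0.01 for urod, −0.10 to 0.15 for hmbsb, −0.07 to 0.02 for uros and −0.06 to 0.03 for fech. None of these values was called, and the cause was not tested.

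With the replicate number as a block, 7, 7 and 0 haem synthesis genes were called in the 3 comparisons, as without it. The numbers were not taken as pairs, since the 9 correlations between deviations of same-numbered libraries lay between −0.0322 and 0.0756. The best match of a library in another genotype had its own number in 11 of 18 cases. This is more often than random matching among 3 libraries would give on average. Whether same-numbered libraries share a source was not tested. The lowest count of these genes in a library was 106, for ppox, and whether depth limited the calls was not tested. With 3 libraries a genotype, the intervals reach about 0.2 to 0.3 log2 units to either side of an estimate.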

Other observations

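The ratio of cpox to fech in TPM, chosen after the values were seen, was 0.4997, 0.408 and 0.383 in the double mutants, 0.412, 0.281 and 0.309 in the single mutants, against 1.002, 0.866 and 0.884 in wild type. Both genes encode enzymes at the mitochondrial end of the pathway, with ppox between them. Depth and scaling cancel in this ratio, and no mutant library reached the lowest wild type.

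Without alas1, the haem synthesis genes summed to 219, 211 and 218 TPM in the double mutants, 220, 199 and 201 TPM in the single mutants, against 324, 326 and 301 TPM in wild type. The mutants did not overlap with wild type on this sum, which was computed after the values were seen.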
